A study of Homo sapiens with 4 samples.

Results

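The genes described here are 33 symbols of glucose breakdown and of the response to low oxygen, taken by name from a table of 33117 rows, in which each of the 33 has 1 row. They comprise 16 glycolytic enzymes, 4 genes of glucose uptake and glycolytic control, 4 genes of the hypoxia-inducible factor (HIF) axis and 9 transcriptional targets of HIF. RNA was sequenced from HT29, an established human colorectal cancer line grown in DMEM with fetal calf serum. Cells had received 100 µM fluorouracil, a pyrimidine analogue used as chemotherapy, for 2 h (2 libraries), or no treatment (2 libraries). The labels name no vehicle for the untreated cells and no separate cultures behind the libraries, so the p-values reflect spread among libraries that may be only technical. Levels are in FPKM, sequenced fragments scaled to transcript length and library size.

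Glycolysis turns glucose into pyruvate in the cytosol, and lactate dehydrogenase turns pyruvate into lactate. HIF is a dimer of an oxygen-labile alpha subunit, encoded by HIF1A or EPAS1, and a stable beta subunit. When oxygen is present, the EGLN prolyl hydroxylases mark the alpha subunit for degradation through VHL, so HIF activity is set largely on the protein and not on its mRNA. In hypoxia HIF binds the core sequence ACGTG or GCGTG near its targets, which include most glycolytic enzymes, VEGFA and CA9. Tumour cells such as HT29 run glycolysis at a high rate also with oxygen present.

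No member passed the test. By limma on log2(FPKM + 0.1), 0 of 32 tested members had an adjusted p below 0.05, as did 0% of all 12462 genes tested. BNIP3 was below the filter, a mean of 1 FPKM over the 4 libraries, and was not tested. At an unadjusted p below 0.05 there were 2 members, the HIF targets BHLHE40 and ADM, against 3.21% of all genes. For 1 gene on its own, the smallest two-sided p that exact permutation of 2 against 2 libraries allows is 0.333. What the libraries show is described below by ranges: a gene is called higher when both fluorouracil values lie above both untreated values, and lower in the opposite case. Of the 32 tested members, 15 were higher, against 24.4% of all genes, and 4 were lower, against 19.3%.

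Fluorouracil replicate 2 stood apart from the other 3 libraries. Fluorouracil replicate 2 had FPKM summing to 764348, fluorouracil replicate 1 to 440023, and untreated replicates 1 and 2 to 434045 and 426453. Deviations from the untreated mean followed the GC content of the transcript in fluorouracil replicate 2 (Spearman's rho 0.70 across 10513 genes, a description, since genes are not independent replicates), and hardly in fluorouracil replicate 1 (rho 0.03). Across the 32 members the same rho was 0.74 and 0.07. The members had a median GC content of 53.0%, and all genes tested 48.7%. Values are therefore given by library, and the members' log2 differences also after a loess fit had removed the trend of each library with GC content and transcript length (below, trend removal). Of 12 colon epithelial markers, 8 were at 10 FPKM or more in every library, such as EPCAM at 345 to 407 FPKM, while CDX1, CDX2 and GPA33 stayed below 2 FPKM. Of 6 fibroblast markers, COL1A2, COL3A1 and DCN were listed at 0 throughout, and KDR and CD3E likewise among 4 endothelial and 5 leukocyte markers. Summed, the fibroblast markers had 3.36 and 2.17 FPKM with fluorouracil, against 4.82 and 4.24 FPKM untreated. The leukocyte markers had 12.02 and 33.9 FPKM with fluorouracil, against 11.5 and 10.1 FPKM untreated. Most of the fibroblast sum was LUM, at 1.93 to 4.75 FPKM. Most of the leukocyte sum was CD68, at 8.65 to 25.1 FPKM, and CD14, at 1.36 to 8.68 FPKM. The highest CD68 and CD14 values were those of fluorouracil replicate 2. In bulk RNA, fewer cells of a type and less RNA per cell cannot be told apart.

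**Figure D1:**
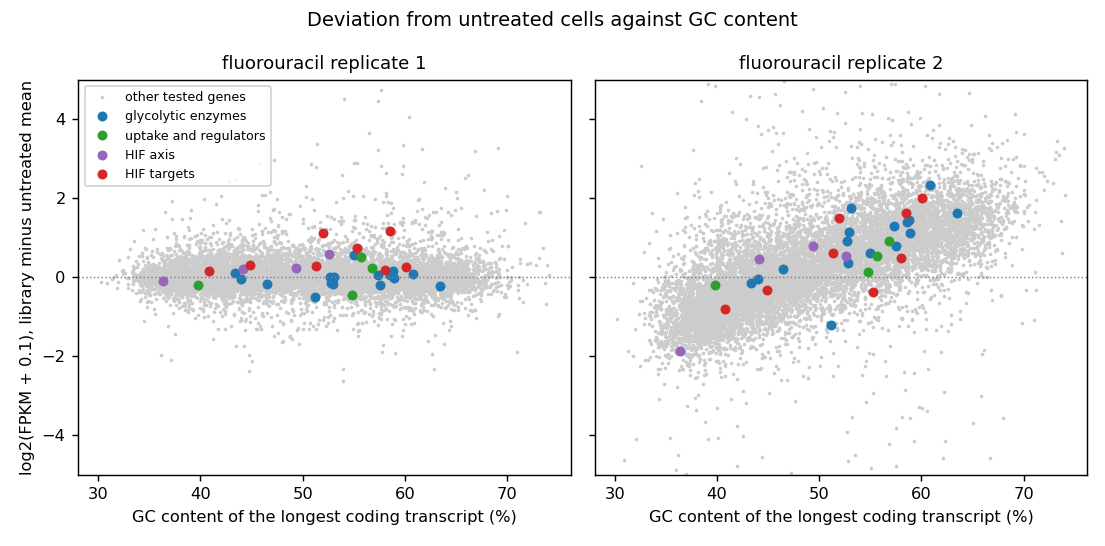
Each point is a gene, with its GC content (x axis, %) against the log2(FPKM + 0.1) of 1 fluorouracil library minus the untreated mean (y axis); grey points are other tested genes and coloured points are members by role. Fluorouracil replicate 1 has almost no slope (rho 0.03), and in fluorouracil replicate 2 (rho 0.70) most members lie along the slope of all genes; 1 and 96 genes fall outside the plotted range.

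Promoters of some members that the comparison turns on are shown here, because HIF targets and many, but not all, abundant enzymes carry the same binding core. Sequences are the 250 bases before the annotated start in RefSeq (GRCh38.p14), 5′ to 3′ on the strand of the gene, and capitals mark ACGTG or GCGTG on either strand. ADM and BHLHE40 are the targets with the smallest p, CA9 is a classical HIF target, and LDHA and PGK1 are enzymes whose levels in both conditions lay close together.
ADM (chr11:10304823-10305072, plus strand): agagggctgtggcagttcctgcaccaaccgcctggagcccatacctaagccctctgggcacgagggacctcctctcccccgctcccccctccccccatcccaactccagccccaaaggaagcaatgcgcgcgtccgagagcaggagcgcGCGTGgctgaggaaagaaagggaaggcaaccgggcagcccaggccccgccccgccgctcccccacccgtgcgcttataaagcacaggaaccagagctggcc
BHLHE40 (chr3:4979187-4979436, plus strand): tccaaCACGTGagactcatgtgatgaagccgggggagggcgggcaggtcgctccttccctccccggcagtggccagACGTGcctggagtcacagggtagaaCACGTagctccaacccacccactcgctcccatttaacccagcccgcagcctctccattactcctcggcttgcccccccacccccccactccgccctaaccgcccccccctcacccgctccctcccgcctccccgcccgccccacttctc
CA9 (chr9:35673678-35673927, plus strand): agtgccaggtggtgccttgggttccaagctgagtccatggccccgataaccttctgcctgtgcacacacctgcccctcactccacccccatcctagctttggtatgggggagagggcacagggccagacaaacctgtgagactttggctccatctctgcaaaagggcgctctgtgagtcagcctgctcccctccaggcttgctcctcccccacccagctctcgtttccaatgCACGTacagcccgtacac
LDHA (chr11:18394313-18394562, plus strand): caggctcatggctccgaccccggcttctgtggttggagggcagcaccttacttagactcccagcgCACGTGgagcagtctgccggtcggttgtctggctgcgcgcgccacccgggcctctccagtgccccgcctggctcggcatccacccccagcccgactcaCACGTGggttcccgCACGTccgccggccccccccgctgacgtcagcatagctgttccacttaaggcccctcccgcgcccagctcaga
PGK1 (chrX:78103998-78104247, plus strand): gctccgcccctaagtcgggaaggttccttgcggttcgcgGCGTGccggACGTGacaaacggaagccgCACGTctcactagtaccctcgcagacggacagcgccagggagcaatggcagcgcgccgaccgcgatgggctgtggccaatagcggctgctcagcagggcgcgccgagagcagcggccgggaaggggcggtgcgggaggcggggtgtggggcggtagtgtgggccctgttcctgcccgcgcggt

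ADM has 1 match, a GCGTG beginning 101 bases before the start. BHLHE40 has 4 matches, of which the pair at 245 and 244 bases overlap as CACGTG, a palindrome also known as the E-box of MYC and other basic helix-loop-helix factors. LDHA has 5 matches in the window shown, with that palindrome at 185 and again at 87 bases before the start. Another annotated window of LDHA, not shown, has 1 match, a GCGTG on the opposite strand at 123 bases. CA9 has 1 match, 18 bases before the start, and PGK1 has 3. The windows of PKM, LDHB and PGAM1 held no match. LDHB and PGAM1 are grouped below with LDHA and PGK1 by their small differences as deposited. A match in at least 1 annotated window was present in 7 of the 7 HIF targets with an entry and in 13 of the 16 glycolytic enzymes. Among all 27305 symbols of the table the share was 47.4%. Counted by window, 33 of 55 member windows (60.0%) held a match, against 43.2% of all 35116. A match is a stretch of letters in this window and not evidence of binding, and the shares were not adjusted for the GC content of the promoters.

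Glycolytic enzymes were near their untreated level in fluorouracil replicate 1 and mostly far above it in fluorouracil replicate 2. Their median log2 difference from the untreated mean was -0.01 in replicate 1 of fluorouracil and 1.02 in replicate 2, beside 0.01 and 0.19 for all genes tested. In fluorouracil replicate 1 alone, 6 of the 16 enzymes were above both untreated values and 7 below both, against 39.0% and 36.4% of all genes. In fluorouracil replicate 2 alone, 13 were above and 3 below, against 52.9% and 41.4%. After trend removal, the enzyme medians were -0.05 and 0.13. As a sum, the 16 enzymes held 1.27% and 1.61% of all FPKM in the fluorouracil libraries, against 1.23% and 1.30% in the untreated ones.

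The first steps trap and rearrange the sugar. HK1, the widely expressed hexokinase, had 15.5 and 38.9 FPKM in fluorouracil replicates 1 and 2, against 17.1 and 18.2 FPKM in untreated replicates 1 and 2, so the groups overlapped. HK2, the inducible hexokinase that many tumours express, had 6.02 and 3.65 FPKM with fluorouracil, against 8.71 and 8.54 FPKM untreated. HK2 was the enzyme with the clearest lower range: both treated values lay below both untreated ones, and the log2 difference was -0.86 (SE 0.36, adjusted p = 0.671 by limma). After trend removal the separate libraries gave -0.54 and -1.47, so the lower values were there in each library on that scale too. GPI, which converts glucose 6-phosphate to fructose 6-phosphate, had 119 and 401 FPKM with fluorouracil, against 117 and 122 FPKM untreated. Over both libraries the log2 difference of HK1 was 0.48 as deposited and 0.19 after trend removal, and that of GPI 0.87 and 0.60.

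The phosphofructokinases, which commit the sugar to glycolysis, were alike in pattern. PFKL, the liver-type subunit, had 17.1 and 61.2 FPKM with fluorouracil, against 19.9 and 19.8 FPKM untreated. The muscle-type subunit PFKM had 14.4 and 27.0 against 13.5 and 15.2 FPKM, and the platelet-type PFKP had 41.7 and 82.6 against 47.4 and 48.2 FPKM. All 3 overlapped, with the higher value in fluorouracil replicate 2 only. After trend removal the log2 difference was 0.023 for PFKL, against 0.70 as deposited, and 0.14 for PFKM, against 0.46. That of PFKP was -0.21, against 0.30 (SE 0.43) as deposited, and its range was then lower.

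In the later steps of the pathway, fluorouracil replicate 1 stayed close to untreated cells for the most abundant transcripts. ALDOA, the aldolase that splits the sugar, had 321 and 1529 FPKM with fluorouracil, against 309 and 295 FPKM untreated. TPI1, triosephosphate isomerase, had 448 and 1076 FPKM with fluorouracil, against 432 and 438 FPKM untreated. GAPDH, the dehydrogenase often used as a reference transcript, had 2034 and 4949 FPKM with fluorouracil, against 1740.5 and 1913 FPKM untreated. These 3 and PKM were higher by range, each by 0.05 to 0.16 in log2 in fluorouracil replicate 1 and by 1.31 to 2.34 in fluorouracil replicate 2. PKM, a pyruvate kinase gene, had 494 and 1244 FPKM with fluorouracil, against 456 and 493 FPKM untreated. ENO1, the main enolase, overlapped, at 523 and 1152 against 516 and 541 FPKM. Trend removal brought these differences down: over both libraries the log2 difference was 0.47 for ALDOA (1.21 as deposited), 0.032 for TPI1 (0.68), 0.13 for GAPDH (0.80), 0.18 for PKM (0.72) and -0.044 for ENO1 (0.56). TPI1 and PKM then overlapped, while ALDOA and GAPDH were still higher by range.

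As deposited, LDHA, LDHB, PGK1 and PGAM1 lay within 0.35 in log2 of the untreated mean in each fluorouracil library. LDHA, which makes lactate, had 479.6 and 480.5 FPKM with fluorouracil, against 487 and 497 FPKM untreated. Its log2 difference was -0.04 (SE 0.30), so the non-overlapping lower range is a matter of a few percent, and it overlapped after trend removal (-0.049). LDHB, the isoform that favours pyruvate, had 574 and 746 FPKM with fluorouracil, against 666 and 634 FPKM untreated. PGK1, a kinase that yields ATP, had 345 and 288 against 315 and 326 FPKM, and the mutase PGAM1 had 166 and 233 against 188 and 178 FPKM. These transcripts lie at the lower end of the GC range of the enzymes (43.3% for PGK1, 44.0% for LDHA, 46.5% for LDHB), except PGAM1 at 52.8%. With that trend taken out, the log2 difference was 0.15 for PGK1, -0.38 for PGAM1 and -0.28 for LDHB, the first higher and the others lower by range. Many glycolytic genes have processed pseudogenes, and how reads shared with them were counted is not given in the sources used here.

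ENO2, the neuronal enolase and a HIF target, was the enzyme whose higher range was of like size in both treated libraries as deposited. It had 8.51 and 8.83 FPKM with fluorouracil, against 6.07 and 5.39 FPKM untreated, or 8.67 ± 0.224 and 5.73 ± 0.480 FPKM (SD, n = 2 each). The log2 difference was 0.59 (SE 0.27, adjusted p = 0.671 by limma). After trend removal, the separate libraries gave 0.52 and -0.19.

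Genes of glucose uptake and glycolytic control had no common direction. SLC2A1, the glucose transporter GLUT1, had 110.5 and 166 FPKM with fluorouracil, against 164 and 139.7 FPKM untreated. Fluorouracil replicate 1 was thus the lowest of the 4 libraries and fluorouracil replicate 2 the highest; after trend removal both were lower than both untreated values, by 0.50 and 0.56 in log2 from their mean. PFKFB3, which makes the activator of phosphofructokinase, had 8.34 and 8.55 FPKM with fluorouracil, against 6.59 and 5.15 FPKM untreated (log2 difference 0.53, SE 0.29, adjusted p = 0.671 by limma). Its paralogue PFKFB4 had 0.946 and 1.58 against 0.941 and 0.670 FPKM. PDK1, the kinase that keeps pyruvate out of the mitochondrial dehydrogenase, had 4.30 and 4.28 against 4.99 and 4.85 FPKM. PFKFB3 and PFKFB4 were higher and PDK1 lower by range, and SLC2A1 overlapped. After trend removal these 3 overlapped instead, with log2 differences of 0.18 for PFKFB3, 0.13 for PFKFB4 and 0.29 for PDK1.

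In the HIF axis the 2 alpha subunits went opposite ways. EPAS1, which encodes HIF-2 alpha, had 10.7 and 10.3 FPKM with fluorouracil, against 7.29 and 6.96 FPKM untreated, or 10.5 ± 0.295 and 7.12 ± 0.238 FPKM (SD, n = 2 each). The log2 difference was 0.55 (SE 0.26, adjusted p = 0.671 by limma), and it was 0.58 and 0.53 in the separate fluorouracil libraries. The trend-removed values were 0.56 and 0.12, or 0.34 over both. HIF1A, which encodes HIF-1 alpha, had 29.1 and 8.43 FPKM with fluorouracil, against 32.6 and 29.9 FPKM untreated. Its lower range rests on fluorouracil replicate 2: the log2 differences were -0.10 and -1.88 in the separate fluorouracil libraries. HIF1A has the lowest GC content of the members, 36.4%, and after trend removal the 2 values were -0.10 and -0.99. As deposited, the ratio of EPAS1 to HIF1A FPKM was 0.368 and 1.22 in fluorouracil replicates 1 and 2, against 0.224 and 0.233 untreated. It was not computed after trend removal, which made both differences in fluorouracil replicate 2 smaller.

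The oxygen-sensing hydroxylases were both higher by range. EGLN1, the main hydroxylase of HIF-1 alpha, had 6.85 and 8.04 FPKM with fluorouracil, against 5.93 and 5.79 FPKM untreated (log2 difference 0.34, SE 0.28). EGLN3, a hydroxylase that HIF itself induces, had 2.91 and 4.31 FPKM with fluorouracil, against 2.79 and 2.15 FPKM untreated (log2 difference 0.51, SE 0.40). Both kept the higher range after trend removal (log2 differences of 0.53 and 0.30), as did EPAS1, and HIF1A kept the lower one. EPAS1 lies on the plus strand of chromosome 2 from 46293667 to 46386703, and HIF1A on the plus strand of chromosome 14 from 61695513 to 61748259 (GRCh38, GENCODE 29).

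The members listed as HIF targets were all above untreated cells in fluorouracil replicate 1. The 8 tested targets were each above both untreated values there, against 39.0% of all genes, with log2 differences from the untreated mean of 0.17 to 1.16 and a median of 0.30. In fluorouracil replicate 2 alone 5 were above and 3 below both untreated values, near the 52.9% and 41.4% of all genes, with a median of 0.55. Over both libraries 5 of 8 were higher by range, 3 overlapped and 0 were lower, against 24.4% higher and 19.3% lower among all genes. After trend removal the medians were 0.26 and 0.04, and 4 of 8 were higher by range, against 18.8% of all genes. Most glycolytic enzymes, and SLC2A1, PFKFB3, PFKFB4 and PDK1, are also HIF targets and are counted apart. As deposited, 6 of the 16 enzymes were above and 7 below both untreated values in fluorouracil replicate 1. Of the 4 genes of glucose uptake and control, 2 were above (PFKFB3 and PFKFB4). The 2 below were SLC2A1 and PDK1, with log2 differences of -0.46 and -0.19 there, so the common direction holds only for the 8 targets as listed. The lists were drawn up with earlier results of these data known, and these shares are descriptive only.

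BHLHE40 and ADM had the largest differences among the members in fluorouracil replicate 1 and the smallest p over both libraries. BHLHE40, a transcriptional repressor also linked to the circadian clock, had 8.96 and 11.7 FPKM with fluorouracil, against 4.04 and 4.06 FPKM untreated, or 10.4 ± 1.97 and 4.05 ± 0.0112 FPKM (SD, n = 2 each). The log2 difference was 1.32 (SE 0.30) and did not pass (adjusted p = 0.671 by limma). Each fluorouracil library showed it, at 1.13 and 1.51, and after trend removal the values were 1.08 and 1.02. ADM, which encodes the vasodilator peptide adrenomedullin, had 8.92 and 12.5 FPKM with fluorouracil, against 3.52 and 4.42 FPKM untreated. Its log2 difference was 1.40 (SE 0.33, adjusted p = 0.671 by limma), at 1.16 and 1.64 in the separate libraries and at 1.09 and 0.38 after trend removal. In GENCODE 29 (GRCh38), BHLHE40 spans bases 4979116 to 4985323 on the plus strand of chromosome 3. ADM spans bases 10304680 to 10307397 on the plus strand of chromosome 11. Both spans begin before the RefSeq starts used above, so the promoter windows printed for these genes lie inside them.

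VEGFA, CA9 and NDRG1 were higher by range, with smaller differences than ADM and BHLHE40 in fluorouracil replicate 1. VEGFA, the endothelial growth factor, had 33.01 and 41.0 FPKM with fluorouracil, against 26.2 and 27.5 FPKM untreated (log2 difference 0.45, SE 0.29, and 0.21 after trend removal). CA9, a carbonic anhydrase of the cell surface that is used as a hypoxia marker, had 19.8 and 67.0 FPKM with fluorouracil, against 16.7 and 16.6 FPKM untreated. The 2 treated values of CA9 were 0.25 and 2.00 above the untreated mean in log2, and 0.18 and 0.60 after trend removal; its transcript has a GC content of 60.1%. NDRG1, a stress-responsive gene, had 11.8 and 14.5 against 10.4 and 10.2 FPKM, and it overlapped after trend removal (log2 difference -0.12, against 0.34 as deposited).

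In the other 4 targets the fluorouracil libraries fell on opposite sides of the untreated pair. ANKRD37, an ankyrin repeat protein, had 4.24 and 1.88 FPKM with fluorouracil, against 2.84 and 2.17 FPKM untreated. P4HA1, the catalytic subunit of collagen prolyl hydroxylase, had 17.3 and 8.72 FPKM with fluorouracil, against 15.6 and 15.2 FPKM untreated. KDM3A, a histone demethylase, had 13.9 and 8.95 FPKM with fluorouracil, against 11.0 and 11.6 FPKM untreated. For each, fluorouracil replicate 1 was the highest library and fluorouracil replicate 2 the lowest. After trend removal, ANKRD37 was 0.67 above the untreated mean in log2 in fluorouracil replicate 1, P4HA1 0.15 and KDM3A 0.27, and fluorouracil replicate 2 gave -1.72, -0.43 and -0.095. BNIP3, a mitophagy receptor, had the same order at a low level, with 1.43 and 0.270 FPKM with fluorouracil, against 0.982 and 0.621 FPKM untreated.

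**Figure D2:**
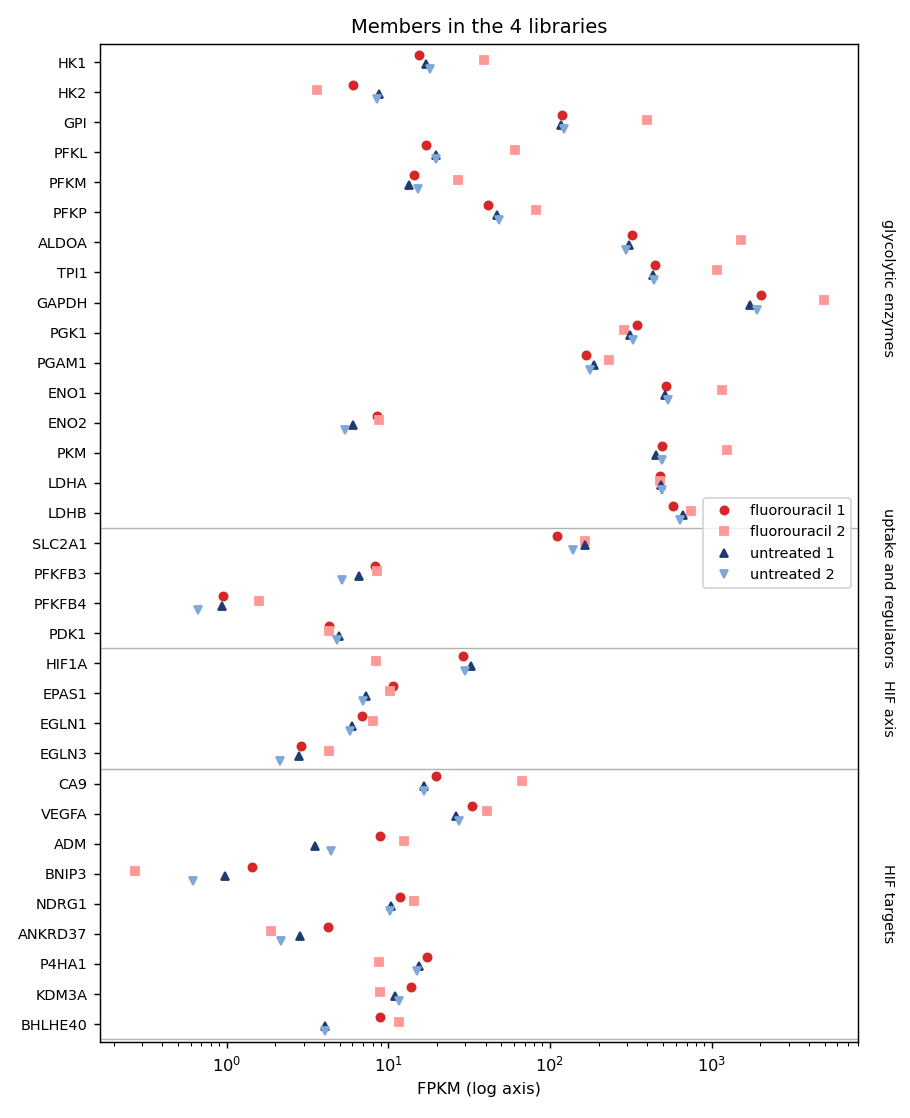
FPKM of every member (x axis, log scale) in the 4 libraries, with the genes down the page by role; circles and squares are fluorouracil replicates 1 and 2, and triangles are untreated replicates 1 and 2. The glycolytic enzymes reach 4949 FPKM (GAPDH) and mostly have the square well to the right of the rest. Both treated points lie right of both untreated ones in 15 members. These include ADM, BHLHE40, EPAS1, ENO2 and PFKFB3, and also ALDOA, TPI1, GAPDH and PKM, where the circle is only slightly to the right.

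The gap between HIF targets and glycolytic enzymes had opposite signs in the treated libraries. The median of the 8 targets minus the median of the 16 enzymes was 0.31 in replicate 1 of fluorouracil and -0.47 in replicate 2, against 0.01 and -0.01 in untreated replicates 1 and 2 (all in log2 against the untreated mean). After trend removal it was 0.31 and -0.09, and after quantile normalization 0.34 and 0.10. Targets above stable enzymes are thus a measurement of fluorouracil replicate 1, which on the deposited scale fluorouracil replicate 2 does not share. The lists are described and not tested, since members are not replicates and the lists were chosen with earlier results of these data known.

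**Figure D3:**
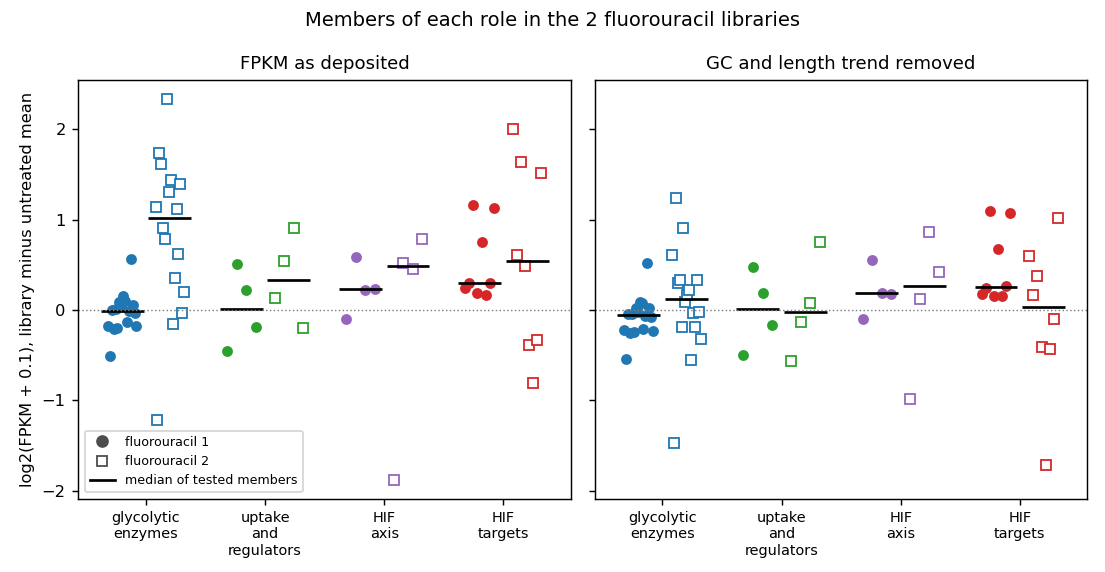
Log2(FPKM + 0.1) of each tested member minus its untreated mean (y axis) by role (x axis), for fluorouracil replicate 1 (filled circles) and fluorouracil replicate 2 (open squares), with medians as bars; the left panel has FPKM as deposited and the right panel has the GC and length trend removed. The enzyme medians of -0.01 and 1.02 on the left become -0.05 and 0.13 on the right, while the HIF target medians are 0.30 and 0.55 on the left and 0.26 and 0.04 on the right.

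Removing the trend left 10 of 32 members higher and 6 lower by range, against 18.8% and 28.7% of 10513 genes. The 10 were ALDOA, GAPDH, PGK1, EPAS1, EGLN1, EGLN3, CA9, VEGFA, ADM and BHLHE40, and the 6 were HK2, PFKP, PGAM1, LDHB, SLC2A1 and HIF1A. With the replicate number as a block, 0 members and 2.72% of all genes were called by limma. Without fluorouracil replicate 2 the counts were 0 members and 0.144% of genes. Without fluorouracil replicate 1 they were 21 members and 66.9%, in a fit that takes the single treated library to be as variable as untreated cells.

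Further HIF targets were more evenly spread in direction in fluorouracil replicate 1, a difference from the 9 that was not tested. Of 40 other target symbols, 37 had a row and 29 were tested. In fluorouracil replicate 1 alone 11 of them were above and 12 below both untreated values, near the background of 39.0% and 36.4%, and over both libraries 11 were higher (37.9%) and 8 lower (27.6%) by range, both above the 24.4% and 19.3% of all genes. Their median log2 differences were 0.01 and 0.23 in fluorouracil replicates 1 and 2. BHLHE41, the closest paralogue of BHLHE40, had 9.23 and 12.6 FPKM with fluorouracil, against 26.9 and 33.4 FPKM untreated, a log2 difference of -1.47 (SE 0.32, adjusted p = 0.671 by limma). After trend removal the 2 values were -1.73 and -1.51, so it was low in both libraries on either scale while BHLHE40 was high. The sum of the pair was 18.2 and 24.3 FPKM with fluorouracil, against 31.0 and 37.5 FPKM untreated. WSB1, a ubiquitin ligase adaptor, had 20.2 and 21.6 FPKM with fluorouracil, against 12.5 and 12.4 FPKM untreated (log2 difference 0.74, SE 0.26, adjusted p = 0.671 by limma).

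Other members of the HIF pathway were measured in 14 tested genes, of which 6, EGLN2 among them, were higher and 2 lower by range, against 24.4% and 19.3% of all genes. CITED2, which competes with HIF for its coactivators, had 9.71 and 7.70 FPKM with fluorouracil, against 4.51 and 6.17 FPKM untreated. CUL2, the scaffold of the VHL ubiquitin ligase, had 15.5 and 9.09 against 18.3 and 16.7 FPKM. VHL itself overlapped, at 9.54 and 7.18 against 9.13 and 9.49 FPKM. EGLN2, the third hydroxylase, had 0.0597 and 109.7 FPKM with fluorouracil, against 0.0303 FPKM in untreated replicate 1 and a listed 0 in untreated replicate 2. That row is high in fluorouracil replicate 2 alone, so its range is no measure of the condition.

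In the rest of sugar and pyruvate metabolism, 5 of 20 tested genes were higher and 3 lower by range, close to the background. BPGM, which makes 2,3-bisphosphoglycerate, had 7.54 and 8.38 FPKM with fluorouracil, against 4.25 and 5.16 FPKM untreated, and log2 differences of 0.64 and 0.76 after trend removal. MPC1, a subunit of the mitochondrial pyruvate carrier, had 18.7 and 48.8 FPKM with fluorouracil, against 12.6 and 13.4 FPKM untreated. PDK4, another kinase of the pyruvate dehydrogenase complex, had 1.36 and 0.934 FPKM with fluorouracil, against 2.66 and 3.07 FPKM untreated (log2 difference -1.27, SE 0.45, adjusted p = 0.671 by limma). SLC16A1, a lactate transporter, had 56.6 and 29.2 against 70.9 and 67.5 FPKM.

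The pathways that branch from or follow glycolysis had medians near 0 in fluorouracil replicate 1. Of 7 pentose phosphate genes, 1 was higher and 2 lower by range, with medians of -0.07 and 0.998 in fluorouracil replicates 1 and 2. Among all genes, 24.4% were higher and 19.3% lower by range. Of 17 TCA cycle genes, 4 were higher (23.5%) and 3 lower (17.6%), near those shares, with medians of 0.01 and 0.12. SUCLA2, a subunit of succinyl-CoA synthetase, had 23.2 and 18.2 FPKM with fluorouracil, against 30.5 and 30.5 FPKM untreated. For 15 reference genes outside the 33, such as PPIA and GUSB, the medians were -0.02 and 0.65, with 5 higher (33.3%) and 3 lower (20%). The median GC content was 54.1% for the enzymes, 56.5% for the pentose phosphate genes and 53.9% for the reference genes; its part in these medians was not tested.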

How the data were processed

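The authors deposited 1 table of FPKM by gene symbol for 4 libraries. The submitters' processing notes name TopHat2 2.1.0, Cufflinks 2.2.1 and the builds hg38 and mm10, without their roles. The unit is inferred from the values and from Cufflinks; the sources used here give neither annotation nor scaling. Values have a median of 6 significant digits in fluorouracil replicate 2 and of 16 elsewhere. The number of fragments is unknown: low rows put untreated replicate 2 and fluorouracil replicate 1 at 1.05 and 1.02 times the depth of untreated replicate 1, and gave no depth for fluorouracil replicate 2. Date-like symbols (28 rows) were left out.

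Genes averaging 1 FPKM or more entered a limma 3.58.1 fit (R 4.3.3) of log2(FPKM + 0.1), with trended variance, 2 residual degrees of freedom and Benjamini-Hochberg adjustment over 12462 genes at 0.05, two-sided. Log2 differences on this scale understate those of weakly expressed genes. GC content and length are those of the longest protein-coding GENCODE 29 transcript; their trend was removed by loess (span 0.3). Promoters came from RefSeq, for 31 of 33 members. The limma and trend removal steps were run on simulated data. The simulated libraries for limma lacked the GC trend of fluorouracil replicate 2, so they cannot show how limma behaves under it. All members are named; of other lists, at most 6 genes with non-overlapping groups by smallest p, of which examples are given, while VHL, PPIA, GUSB and the markers were named after their values were seen. Members and lists were chosen with earlier results of these data known.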

Additional observations from a re-analysis of the deposited data

How the results depend on the processing

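No member was called under any scaling, filter or pseudocount tried, nor without either untreated library. The count of all genes called, 0 here (400 at an unadjusted p below 0.05), was 81 with no filter on low values and 339 with the replicate block. The correlation of same-numbered deviations was -0.05, which cannot decide whether the numbers pair the libraries. Fluorouracil replicate 2 dominates it: deviations from the untreated mean had an SD of 1.80 there and 0.53 in fluorouracil replicate 1. No member was called with the block. Leaving out single libraries gave 0 to 8337 genes and 0 to 21 members called, and 19 to 32 members with non-overlapping groups (19 with all libraries); the high ends are without fluorouracil replicate 1, and without fluorouracil replicate 2 the counts were 18, 0 and 29. With 1 treated library, a gene has non-overlapping groups whenever that library lies outside the untreated pair. In fluorouracil replicate 1 alone, 39.0% of all genes lay above both untreated values and 36.4% below both. In fluorouracil replicate 2 alone, these shares were 52.9% and 41.4%. The 29 and 32 members are therefore not comparable with the 19. The enzyme median, 0.52 over both libraries, was 0.071 after quantile normalization, 0.080 after removal of the GC and length trend and -0.0084 without fluorouracil replicate 2. The HIF target median, 0.40, was 0.26, 0.15 and 0.30 under the same settings. The gap between targets and enzymes was -0.12, and 0.31 without fluorouracil replicate 2, 0.19 after quantile normalization, 0.068 after trend removal and 0.15 as a difference of means.

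Signs of uncalled differences also turned. After trend removal, log2 differences were -0.21 for PFKP, 0.15 for PGK1, -0.38 for PGAM1, -0.044 for ENO1, -0.28 for LDHB, 0.29 for PDK1, -0.12 for NDRG1, -0.52 for ANKRD37 and 0.087 for KDM3A. Quantile normalization gave -0.34 for PGAM1, -0.068 for ENO1 and -0.57 for LDHB, and centring on medians -0.037 for LDHB. Leaving out single libraries gave ranges of -0.18 to 1.14 for HK1, -0.0027 to 1.74 for GPI, -0.21 to 1.62 for PFKL, -0.20 to 0.79 for PFKP, -0.15 to 0.10 for PGK1, -0.13 to 0.35 for PGAM1, -0.014 to 1.12 for ENO1, -0.18 to 0.20 for LDHB, -0.46 to 0.13 for SLC2A1, -0.38 to 0.75 for ANKRD37, -0.81 to 0.17 for P4HA1 and -0.33 to 0.30 for KDM3A. The cause was not tested. Depth in fragments is unknown, so no counting error was computed, and 2 libraries a group limit every comparison.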

Other observations

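Rows that are nearly absent in 3 libraries and abundant in the remaining one were almost all in fluorouracil replicate 2. With limits of 0.1 and 10 FPKM there were 44 such rows in fluorouracil replicate 2, EGLN2 among them, 1 in fluorouracil replicate 1 and 0 in each untreated library. The opposite, under 0.1 FPKM in 1 library and over 10 FPKM in each other, held for 103 rows in fluorouracil replicate 2 and 0 in the other 3. In fluorouracil replicate 2, the 78 rows from MFRP to MICALL2 correlated with the other libraries at 0.410 in place and at 0.914 after a shift by 1 row; 0 of the 33 genes lie among them. The part of these rows in the results was not tested.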
